A study of Mus musculus with 3 samples.

Results

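Fc receptors bind the constant tails of antibodies and so let an immune cell read antibody that has coated a microbe or a dying cell. In the mouse, the activating receptors for IgG (Fcgr1, Fcgr3 and Fcgr4, the genes of FcγRI, FcγRIII and FcγRIV) pass their signal through a small shared chain, the FcRγ chain, encoded by *Fcer1g*, whereas the inhibitory receptor FcγRIIb, encoded by *Fcgr2b*, carries its own inhibitory motif and restrains activation in myeloid cells and in B cells. *Fcrls* encodes an Fc receptor-like protein that is widely used as a marker of microglia and other resident Mφs. The 6 genes were taken by name, and all 6 were present among the 14148 genes of the count tables.

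The data were single-cell RNA sequencing of CD45+ cells sorted from the small-intestinal muscularis externa of mice of 12 weeks, all WT and on the C57BL/6J background. 1 library came from naïve mice (652 cells, 1865221 UMIs in all), 1 from mice 24 h after intestinal manipulation (2211 cells, 10542346 UMIs) and 1 from mice 72 h after it (1239 cells, 5246731 UMIs). Intestinal manipulation is a surgical handling of the gut that inflames its muscle layer. Each library pooled cells of several mice, so each time point is 1 library without replicates, differences between time points were not tested, and the effect of a time point cannot be told apart from that of its library. Median depths were 2134.5, 4669 and 3295 UMIs per cell, and 1 cell barcode was shared by each pair of libraries.

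Cells were clustered without the Fc receptor genes and grouped by marker genes into monocyte/Mφ-like cells (138 naïve, 1544 at 24 h, 571 at 72 h), DC-like cells (22, 120 and 139), neutrophil-like cells (13, 409 and 110), B cell-like cells (225, 32 and 43) and T cell-like cells, which include ILCs and NK cells (188, 71 and 136). A cluster led by *Ptgs2*, *Siglecf* and *Mmp9* (14, 29 and 204 cells, called cluster 8) and a cluster of dividing cells led by *Pclaf* and *Top2a* (52, 6 and 36 cells) stayed unnamed. Levels are the UMIs of a gene summed over a group and scaled to 1000000 UMIs of that group (CPM). A level is thus a share of the group's UMIs and not an amount per cell. At 24 h the median depth was 5924.5 UMIs in monocyte/Mφ-like cells, 891 in neutrophil-like cells and 756 in cluster 8. Ranges in parentheses are exact 95% intervals, which cover counting error only and not the difference between mice. Groups under 20 cells in a library were not compared. Because the 3' ends of different transcripts are captured unequally, levels are compared between groups of cells and not between genes.

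4 of the genes lie together on chromosome 1 of GRCm38, within 275.7 kb: *Fcgr2b* (170958617 to 170976547, minus strand), *Fcgr4* (171018920 to 171029761, plus strand), *Fcgr3* (171051174 to 171064935, minus strand) and *Fcer1g* (171229572 to 171234365, minus strand). *Fcrls* (87250758 to 87263738) and *Fcgr1* (96282909 to 96293969) lie on the minus strand of chromosome 3. *Fcgr2b* overlaps 1 gene on the opposite strand, *Gm38204*, which a stranded kit keeps apart. *Fcgr3* overlaps the miRNA gene *Mir6546* and *Fcgr4* the snRNA gene *Gm26110* on the same strand, where strand does not separate the reads. Of the last 500 bases of their coding transcripts, where the 3' reads fall, 60-base windows were shared with another gene in 1 transcript only: 13 of 441 windows of Fcgr2b-203 occur in *Fcgr3*, so reads of that stretch could come from either gene.

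The stretch before the start of each gene was searched on both strands for the letters GAGGAA, a core bound by the myeloid factor PU.1, TTCNNNGAA, the palindrome of STAT factors, and GAAA, any pair of bases and GAAA again, a repeat bound by interferon regulatory factors. In the 250 bases before the RefSeq start, 23.3% of all 32851 promoters held the first, 7.02% the second and 2.98% the third. *Fcgr1*, *Fcgr3*, *Fcgr4* and *Fcrls* held the PU.1 core, only *Fcgr1* of the 6 the STAT letters and only *Fcgr4* the interferon regulatory factor letters. No match was found in the windows of *Fcgr2b* and *Fcer1g*. These matches are descriptions of letters, and binding was not measured. The *Fcgr1* and *Fcgr4* windows are shown because they hold 2 kinds of match each, and shorter stretches of *Fcgr3* and *Fcrls* because they hold the PU.1 core. Capitals mark the matches, and all are given 5′ to 3′ along the gene from RefSeq, GRCm38.p6, where all 6 genes were matched by symbol. The RefSeq starts of *Fcgr3*, *Fcrls* and *Fcgr4* used here lie inside the GENCODE spans of these genes. For *Fcgr3* and *Fcrls* the printed stretches with the PU.1 core lie inside those spans too. *Fcgr3* had 2 RefSeq starts, and the stretch before the first is printed.
Fcgr1, chr3:96293970-96294219, minus strand: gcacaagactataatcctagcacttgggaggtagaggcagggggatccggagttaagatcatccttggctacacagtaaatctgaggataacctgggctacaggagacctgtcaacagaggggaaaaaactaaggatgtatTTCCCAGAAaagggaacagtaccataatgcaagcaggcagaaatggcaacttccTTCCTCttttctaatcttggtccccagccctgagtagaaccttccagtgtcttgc
Fcgr4, chr1:171018676-171018925, plus strand: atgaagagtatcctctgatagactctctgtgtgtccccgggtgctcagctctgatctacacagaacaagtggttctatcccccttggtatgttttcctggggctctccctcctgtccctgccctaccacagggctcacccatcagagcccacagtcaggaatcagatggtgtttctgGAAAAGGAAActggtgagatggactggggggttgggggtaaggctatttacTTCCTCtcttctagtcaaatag
Fcgr3, chr1:171059404-171059421, minus strand: gagtccatttccTTCCTC
Fcrls, chr3:87263651-87263680, minus strand: caagtctgtaaaGAGGAAggacgtttgctt

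The first question was which immune cells of the muscularis carried these transcripts. Apart from *Fcer1g*, which lymphoid cells also held, they were mostly transcripts of myeloid cells. *Fcer1g* was read in most monocyte/Mφ-like cells, *Fcgr3* and *Fcgr4* were read in Mφ-like and neutrophil-like cells alike, *Fcgr1* was at its highest in monocyte/Mφ-like cells, and *Fcrls* was found in Mφ-like and DC-like cells with 0 UMIs in neutrophil-like cells at 24 h and 72 h. *Fcgr2b* was the 1 receptor of the 6 genes that stood above the level of T cell-like cells in B cell-like cells, in the naïve and the 72 h library. T cell-like cells held *Fcer1g* themselves, so that gene could not be judged against their level.

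*Fcgr1* encodes the high-affinity IgG receptor and is a common Mφ marker. In monocyte/Mφ-like cells it was at 225 CPM (185 to 272) in the naïve library, 614 CPM (598 to 630.5) at 24 h and 248 CPM (231 to 267) at 72 h. The 24 h level was the highest of all classes and libraries, and the naïve and 72 h levels, next in order, did not differ beyond counting error. DC-like cells had 49.4, 162 and 49.6 CPM, also highest at 24 h. The level of monocyte/Mφ-like cells was 3.79-fold (3.19 to 4.54) that of DC-like cells at 24 h and 5.01-fold (3.74 to 6.85) at 72 h. In neutrophil-like cells *Fcgr1* was at 99.0 CPM (70.7 to 135) at 24 h. T cell-like cells, which should lack the gene, were at 59.4 CPM (27.1 to 113) in that library with the NK/ILC-like cells left out. The ratio of the neutrophil-like level to theirs was 1.67 (0.796 to 3.91), so no difference from that level could be seen at this depth, and the part of free RNA was not tested.

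*Fcgr3*, which encodes a low-affinity activating receptor, was at 833 CPM (754 to 918), 541 CPM (526 to 557) and 794 CPM (763 to 826) in naïve, 24 h and 72 h monocyte/Mφ-like cells. Neutrophil-like cells were at 720.0 CPM (639.7 to 808) at 24 h and 795 CPM (656 to 954) at 72 h, and cluster 8 was at 550.3 CPM (455 to 660.1) at 72 h. The first 3 places in the order of levels were naïve monocyte/Mφ-like, 72 h neutrophil-like and 72 h monocyte/Mφ-like cells, and neighbours among them did not differ beyond counting error. DC-like cells were lower, at 74.1, 152 and 219 CPM, and T cell-like cells were at 23.1, 63.6 and 68.4 CPM.

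*Fcgr4*, which encodes an activating receptor of intermediate affinity, was highest in 24 h neutrophil-like cells, at 356 CPM (300.5 to 419), and in naïve monocyte/Mφ-like cells, at 333 CPM (284 to 388), a pair that did not differ beyond counting error. These were 144 UMIs over 409 cells and 164 UMIs over 138 cells, so the order per cell was not that in CPM. Monocyte/Mφ-like cells were at 234 CPM (224 to 244) at 24 h and 202 CPM (187 to 219) at 72 h. Neutrophil-like cells were at 173 CPM (112 to 255) at 72 h. DC-like cells were at 37.1 CPM (25.0 to 52.9) at 24 h and 31.0 CPM (20.9 to 44.3) at 72 h, and T cell-like cells at 10.5, 21.2 and 4.72 CPM. Monocyte/Mφ-like cells were thus 6.31-fold (4.41 to 9.38) above DC-like cells at 24 h and 6.53-fold (4.53 to 9.76) at 72 h.

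*Fcgr2b* was at 479 CPM (420.2 to 545), 404 CPM (391 to 417) and 821 CPM (789 to 853) in naïve, 24 h and 72 h monocyte/Mφ-like cells, so that the 72 h level stood above both others. DC-like cells had 136, 119.9 and 274 CPM, and their 72 h level was 2.28-fold (1.80 to 2.91) that at 24 h. Neutrophil-like cells had 148 CPM (113 to 191) at 24 h and 214 CPM (146 to 304) at 72 h, a ratio of 1.44 (0.904 to 2.26).

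*Fcer1g* was at 3189 CPM (3034 to 3351), 3816 CPM (3776 to 3857) and 3201 CPM (3138 to 3265) in naïve, 24 h and 72 h monocyte/Mφ-like cells. Levels were higher in neutrophil-like cells, 6099 CPM (5861 to 6345) and 4969 CPM (4613 to 5346) at 24 h and 72 h, and in cluster 8, 8175 CPM (7002 to 9488) and 4815 CPM (4524 to 5121). At 24 h there were 2465 UMIs over 409 neutrophil-like cells and 34315 UMIs over 1544 monocyte/Mφ-like cells. Per cell, neutrophil-like cells thus held fewer UMIs of the gene. DC-like cells had 1543, 1941 and 1726 CPM, and T cell-like cells 1862, 1278 and 1236 CPM.

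*Fcrls* was at 124 CPM (94.8 to 159) in naïve monocyte/Mφ-like cells, at 3.67 CPM (2.53 to 5.15) at 24 h and at 125 CPM (113 to 138) at 72 h. At 24 h these were 33 UMIs over 1544 cells. DC-like cells had 0 UMIs at 24 h, where 3 UMIs would be 3.71 CPM, and 83.7 CPM (66.5 to 104) at 72 h. The dividing cluster was at 124 CPM (88.6 to 169) at 72 h. By marker lists it held mainly B cell markers, with some of T cells and DCs, and at 72 h 8 of its 36 cells had a UMI of the B cell gene *Cd79a* while 27 had one of the myeloid gene *Lyz2* without *Cd79a*. *Lyz2* was read in 35 of the 36 cells, those with *Cd79a* among them, so it did not set kinds of cell apart here. The values of the dividing cluster are not read as those of 1 cell type.

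**Figure D1:**
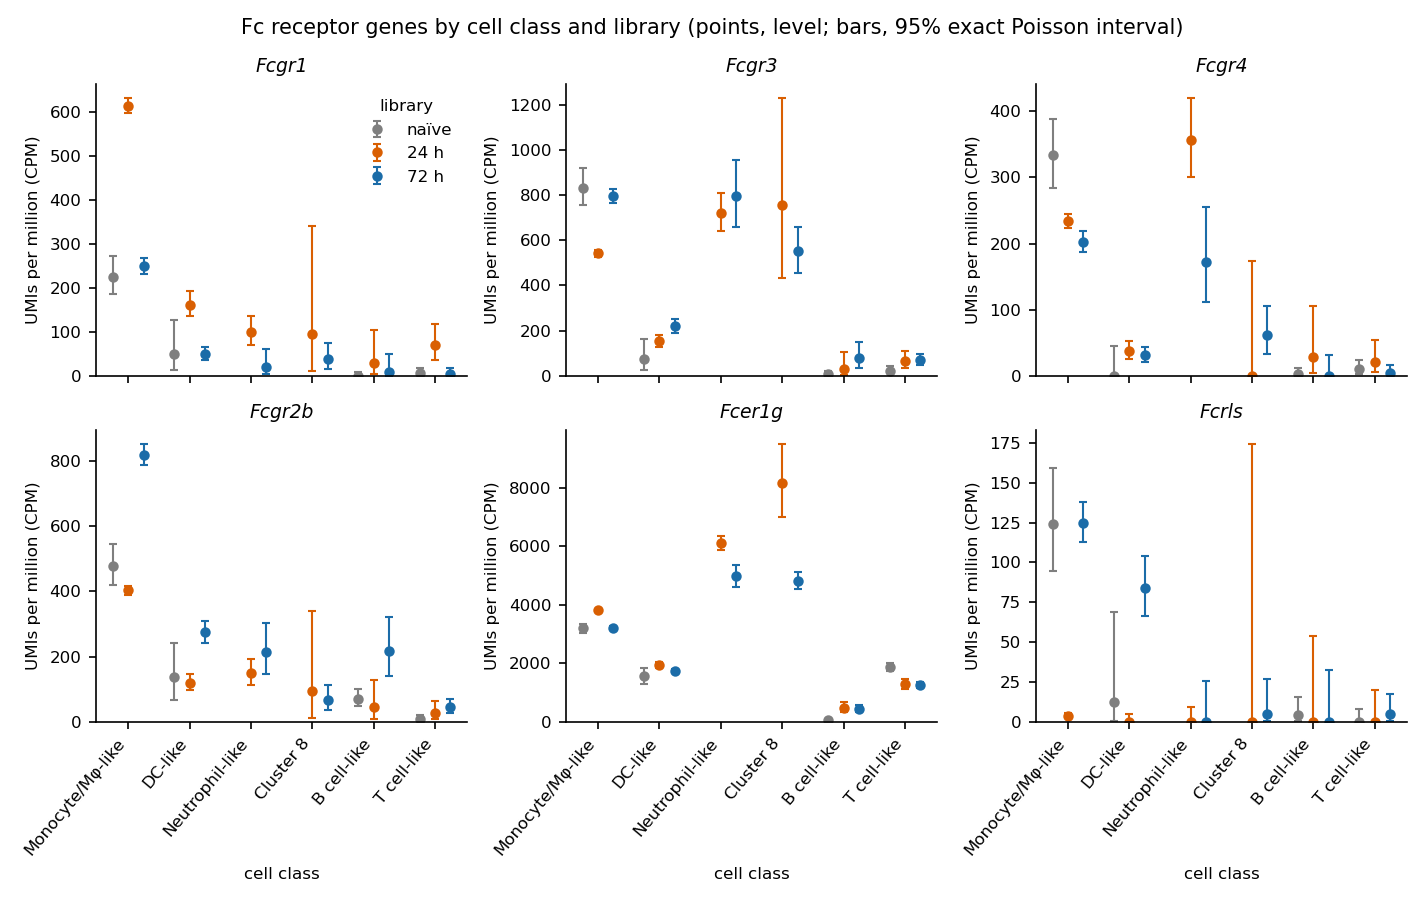
Level in CPM (vertical axis, linear, different range in each panel) of each gene by cell class (horizontal axis) and library (colour), with groups under 20 cells left out; points are levels and bars exact 95% Poisson intervals. *Fcgr1* peaked at 614 CPM in 24 h monocyte/Mφ-like cells and *Fcgr2b* at 821 CPM in 72 h monocyte/Mφ-like cells.

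Shares of cells with a UMI were compared after each cell was thinned to 1000 UMIs, with shallower cells left out (4, 17 and 16 monocyte/Mφ-like cells in the naïve, 24 h and 72 h libraries). *Fcgr1* was read in 22.4%, 38.5% and 20.9% of monocyte/Mφ-like cells, *Fcgr2b* in 26.1%, 32.0% and 53.7%, and *Fcgr3* in 51.5%, 36.0% and 52.6%. The 24 h library was highest for *Fcgr1*, as in CPM, and the 72 h library was highest for *Fcgr2b*. *Fcrls* was read in 7.46%, 0.196% and 10.1% and *Fcer1g* in 96.3%, 95.4% and 92.1%. In T cell-like cells, thinned alike, *Fcgr1* was read in 0.565%, 10.0% and 0.735%, *Fcgr2b* in 0.565%, 1.43% and 5.88% and *Fcgr3* in 1.13%, 7.14% and 3.68%. Without thinning, the shares of monocyte/Mφ-like cells were 50%, 79.3% and 54.3% for *Fcgr1* and 65.2%, 77.8% and 90.0% for *Fcgr2b*, at median depths of 3317, 5924.5 and 5322 UMIs, and median depths of T cell-like cells were 2336.5, 2400.0 and 2710.0 UMIs.

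The second question was how the receptors differed between time points in monocyte/Mφ-like cells. At 24 h against the naïve library, *Fcgr1* was 2.72-fold (2.26 to 3.32) higher, and *Fcrls* was at 0.0296 (0.0188 to 0.0460) of its naïve level. *Fcgr3* was at 0.650 (0.587 to 0.720), *Fcgr4* at 0.703 (0.599 to 0.829) and *Fcgr2b* at 0.842 (0.738 to 0.964) of naïve, and *Fcer1g* at 1.2 (1.14 to 1.26). So 1 of the 6 genes was at least 2-fold higher and 1 at least 2-fold lower, where, of the 2814 genes that reached 50 CPM in one library or the other, 11.5% were at least 2-fold higher and 8.35% at least 2-fold lower. The 3 activating receptors did not share a direction: *Fcgr1* was higher at 24 h while *Fcgr3* and *Fcgr4* were lower.

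From 24 h to 72 h, *Fcgr2b* was 2.03-fold (1.93 to 2.14) higher, *Fcrls* 34.1-fold (23.9 to 50.2) higher and *Fcgr3* 1.47-fold (1.40 to 1.54) higher. *Fcgr1* was at 0.405 (0.375 to 0.437), *Fcgr4* at 0.865 (0.790 to 0.946) and *Fcer1g* at 0.839 (0.820 to 0.858) of the 24 h level. Here 2 genes were at least 2-fold higher, beside 3.68% of all 2693 genes, and 1 at least 2-fold lower, beside 4.79%. *Fcgr2b* stood just past 2-fold, and with the libraries scaled by TMM it was at 1.92-fold.

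Between 72 h and the naïve library, 0 of the 6 genes passed 2-fold in either direction, beside 2.35% of 2639 genes higher and 4.02% lower. *Fcgr1* (1.10, 0.902 to 1.36), *Fcgr3* (0.953, 0.858 to 1.06), *Fcer1g* (1, 0.951 to 1.06) and *Fcrls* (1.01, 0.769 to 1.35) had intervals that held 1. *Fcgr2b* was 1.71-fold (1.5 to 1.96) higher and *Fcgr4* at 0.608 (0.511 to 0.726) of naïve. The 3 comparisons share libraries and are not independent of each other.

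**Figure D2:**
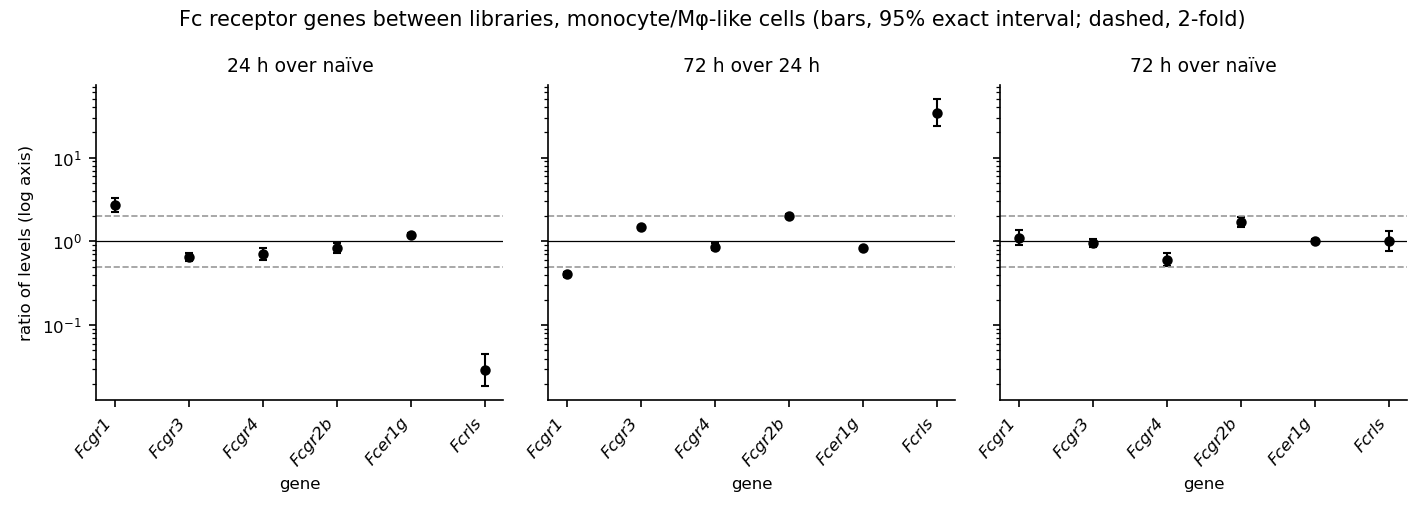
Ratio of the level in the first library over the second (vertical log axis) for each gene (horizontal axis) in monocyte/Mφ-like cells; bars are exact 95% intervals. *Fcrls* lies at 0.0296 for 24 h over naïve and at 34.1 for 72 h over 24 h, and no gene passes 2-fold for 72 h over naïve.

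These cells were not the same kinds of cell in the 3 libraries. Of the 138 naïve monocyte/Mφ-like cells, 72 were Cx3cr1+ Mφ-like and 28 Selenop+ Mφ-like. Of the 1544 cells at 24 h, 418 were Fabp5+ Mo/Mφ-like, 322 Ly6c+ monocyte-like, 283 Ltc4s+ Mφ-like and 206 Ccr2+ int Mφ-like, and of the 571 at 72 h, 246 were Selenop+ and 127 Timp2+ Mφ-like. No named state had 20 cells in both the naïve and the 24 h library, so a difference between kinds of cell and a difference within a kind cannot be told apart for that pair.

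At 24 h, Ly6c+ monocyte-like cells had 917 CPM (877 to 958) of *Fcgr1*, the highest level of any state. Fabp5+ Mo/Mφ-like cells followed at 622 CPM (594 to 651), and Ccr2+ int, Ltc4s+ and Arg1+ cells lay at 475, 434 and 431 CPM. Set against Fabp5+ cells, Ly6c+ cells were 1.47-fold (1.38 to 1.57) higher in *Fcgr1*, 1.40-fold (1.25 to 1.55) in *Fcgr4*, 1.22-fold (1.18 to 1.25) in *Fcer1g*, 1.15-fold (1.05 to 1.26) in *Fcgr2b* and 1.13-fold (1.05 to 1.22) in *Fcgr3*. Of the 5 genes with at least 50 CPM, 0 passed 2-fold, beside 6.43% of 2722 genes higher and 2.87% lower. In the same pair all 10 interferon-stimulated genes of a list were at least 2-fold higher in the Ly6c+ cells.

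At 72 h, Selenop+ and Timp2+ Mφ-like cells, the states with the most cells in that library, differed most in *Fcgr1*, *Fcgr4* and *Fcrls*. *Fcgr1* was at 284 CPM (256 to 314) in Selenop+ and 96.0 CPM (73.1 to 124) in Timp2+ cells, a ratio of 2.96 (2.24 to 3.96). *Fcgr4* was at 269 CPM (241 to 298) and 91.1 CPM (68.9 to 118), a ratio of 2.95 (2.22 to 3.98). *Fcrls* was at 216 CPM (192 to 243) and 60.2 CPM (42.4 to 83.0), a ratio of 3.59 (2.55 to 5.21). The inhibitory *Fcgr2b* stood nearer to even, at 919.5 CPM (868 to 973) and 779.6 CPM (711 to 853), a ratio of 1.18 (1.06 to 1.31). *Fcer1g* was at a ratio of 1.22 (1.15 to 1.29) and *Fcgr3* at 1.63 (1.44 to 1.84). Hence 3 of the 6 genes were at least 2-fold higher in Selenop+ cells and 0 lower, beside 6.69% of 2735 genes higher and 11.1% lower.

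Some states could be followed over time. Ccr2+ int Mφ-like cells had 528 CPM (491 to 567) of *Fcgr2b* at 24 h and 883 CPM (806 to 965) at 72 h, a ratio of 1.67 (1.49 to 1.88). Their *Fcgr1* was at 475 and 349 CPM, a ratio of 0.734 (0.622 to 0.863). *Fcgr4* (0.913, 0.727 to 1.14) and *Fcer1g* (0.993, 0.942 to 1.05) had intervals that held 1. Of the 5 genes with at least 50 CPM, 0 passed 2-fold within this state, beside 1.46% of 2604 genes higher and 2.27% lower. Ly6c+ monocyte-like cells had 917 CPM of *Fcgr1* at 24 h and 287 CPM (207 to 388) in the 25 cells at 72 h, a ratio of 0.313 (0.225 to 0.425). Their *Fcgr2b* was at 405 CPM (378 to 433) and 533 CPM (421 to 665), a ratio of 1.32 (1.03 to 1.66). *Fcgr1* was thus lower and *Fcgr2b* higher at 72 h in both states, as over all monocyte/Mφ-like cells.

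Selenop+ Mφ-like cells had 59.4 CPM (21.8 to 129) of *Fcrls*, 6 UMIs, in 28 naïve cells and 216 CPM in 246 cells at 72 h, 3.65-fold (1.65 to 10.0) higher. The other 5 genes were within 2-fold in that state, so that 1 of 6 was higher and 0 lower, beside 5.34% of 2605 genes higher and 6.33% lower. *Fcgr2b* was at 1.12 (0.896 to 1.42) and *Fcgr1* at 1.15 (0.765 to 1.80) of the naïve level. Cx3cr1+ Mφ-like cells had 194 CPM (140.5 to 262) of *Fcrls* in 72 naïve cells and 212 CPM (136 to 316) in 20 cells at 72 h. Their *Fcgr4* was at 465 CPM (379.6 to 564) naïve and 301 CPM (208 to 420.0) at 72 h, where the ratio to Selenop+ cells was 1.12 (0.763 to 1.59). In the naïve library their *Fcgr2b* was at 0.407 (0.293 to 0.563) of that of Selenop+ cells, 334 against 821 CPM. *Fcrls* lay between 0.702 and 5.70 CPM in the Fabp5+, Ly6c+, Ltc4s+, Arg1+ and Ccr2+ int states at 24 h.

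**Figure D3:**
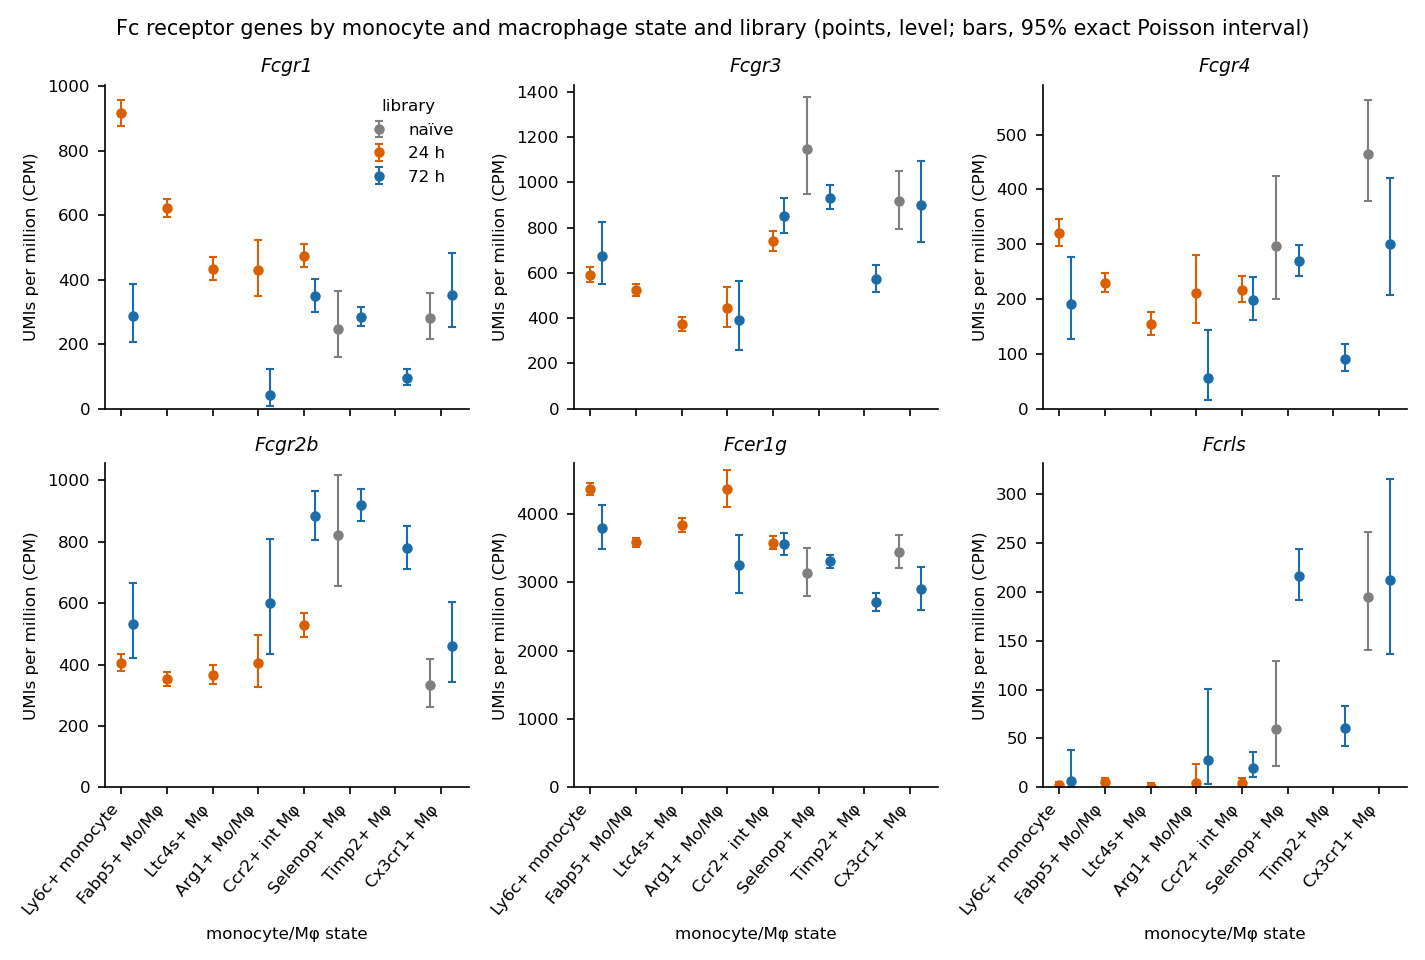
Level in CPM (vertical axis, linear, different range in each panel) of each gene by monocyte/Mφ state (horizontal axis) and library (colour), with groups under 20 cells left out; points are levels and bars exact 95% Poisson intervals. *Fcgr1* was at 917 CPM in 24 h Ly6c+ monocyte-like and 96.0 CPM in 72 h Timp2+ Mφ-like cells.

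Activating receptors and FcγRIIb all bind IgG, and the balance between them is known to set how strongly a cell answers. The UMIs of *Fcgr1*, *Fcgr3* and *Fcgr4* together over those of *Fcgr2b* gave a ratio of 2.90 (2.50 to 3.38) in naïve monocyte/Mφ-like cells, 3.44 (3.32 to 3.57) at 24 h and 1.52 (1.44 to 1.60) at 72 h. The ratio depends on how well each transcript is captured, so only its difference between groups is read. The 72 h ratio was 0.441 (0.414 to 0.469) of the 24 h ratio and 0.523 (0.445 to 0.612) of the naïve one. The 24 h ratio was 1.19 (1.01 to 1.38) of the naïve one. Within named myeloid groups with 20 cells in both libraries, the difference between 72 h and naïve was not seen beyond counting error. The 72 h ratio was 0.784 (0.590 to 1.036) of the naïve one in Selenop+ cells and 0.681 (0.449 to 1.036) in Cx3cr1+ cells. For DC-like cells the interval, 0.456 to 3.22, also held 1.

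The ratio was also lower at 72 h than at 24 h within the named myeloid groups that had 20 cells in both libraries. It was 4.52 and 2.17 in Ly6c+ monocyte-like cells, 2.71 and 1.58 in Ccr2+ int Mφ-like cells and 2.68 and 0.814 in Arg1+ Mo/Mφ-like cells. It was 2.93 and 1.09 in DC-like cells and 7.92 and 4.61 in neutrophil-like cells. Each of these 5 differences had an interval below 1, the nearest to it in neutrophil-like cells, 0.583 (0.356 to 0.969). The neutrophil-like ratio counts 40 *Fcgr1* UMIs at 24 h and 3 at 72 h. The 24 h *Fcgr1* level of these cells could not be told from that of T cell-like cells, and the ratio without *Fcgr1* was not computed. In the unnamed cluster 8, with 2 *Fcgr2b* UMIs at 24 h, the 72 h ratio was 1.09 (0.111 to 5.38) of the 24 h one, and no difference could be seen at this depth. The ratio was also lower at 72 h in the whole T cell-like class, at 5.80 and 1.74. The ratio of ratios there was 0.303 (0.0784 to 0.982), an interval below 1. T cell-like cells without the NK/ILC-like ones had 16 activating and 5 inhibitory UMIs at 24 h and 23 and 19 at 72 h. Their ratio of ratios was 0.384 (0.0924 to 1.37), in which no difference could be seen at this depth. The part of free RNA in the myeloid ratios was not tested. At 72 h, Timp2+ cells had a ratio of 0.975 (0.856 to 1.11), Selenop+ cells 1.62 (1.5 to 1.74) and Cx3cr1+ cells 3.38 (2.47 to 4.71).

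**Figure D4:**
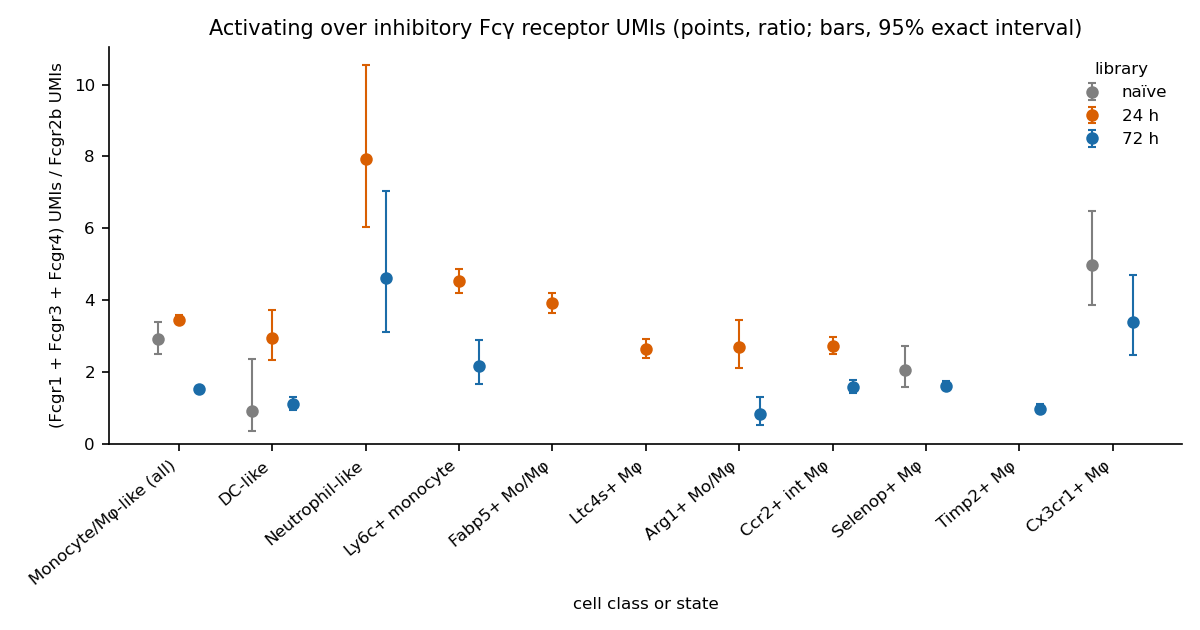
UMIs of *Fcgr1*, *Fcgr3* and *Fcgr4* over UMIs of *Fcgr2b* (vertical axis) by cell class or state (horizontal axis) and library (colour), with groups under 20 cells left out; points are ratios and bars exact 95% intervals. Over all monocyte/Mφ-like cells the ratio was 3.44 at 24 h and 1.52 at 72 h.

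The receptors were also looked up in the same cell, after thinning to 1000 UMIs. Both *Fcgr2b* and at least 1 activating receptor gene were read in 14.2% of naïve, 21.9% of 24 h and 38.4% of 72 h monocyte/Mφ-like cells, and *Fcgr2b* without them in 11.9%, 10.1% and 15.3%. An activating receptor was read in 54.3% (36.6 to 71.2%) of naïve cells with *Fcgr2b* and in 74.7% (65.0 to 82.9%) of those without it. At 24 h the shares were 68.5% (64.2 to 72.6%) and 66.0% (63.0 to 68.9%). At 72 h they were 71.5% (66.0 to 76.5%) and 63.0% (56.8 to 69.0%), so that the order of the shares was not the same in the 3 libraries. In DC-like cells *Fcgr2b* was read with an activating receptor in 3, 4 and 5 cells of the naïve, 24 h and 72 h libraries and without one in 1, 10 and 21. In B cell-like cells it was read with an activating receptor in 0 cells of each library and without one in 13, 1 and 6.

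The third question concerned lymphoid cells, where *Fcgr2b* is known as the IgG receptor of B cells, and *Fcgr3* with *Fcer1g* as that of NK cells. In B cell-like cells *Fcgr2b* was at 70.3 CPM (48.4 to 98.8) in the naïve library, 43.6 CPM (9 to 128) at 24 h from 3 UMIs, and 218 CPM (141 to 321) at 72 h. T cell-like cells were at 8.42, 26.5 and 44.8 CPM. Their naïve and 24 h levels came from 4 and 5 UMIs, so the ratios to them rest on few UMIs. The level in B cell-like cells was 8.35-fold (2.97 to 32.5) that of T cell-like cells in the naïve library and 4.86-fold (2.57 to 9.33) at 72 h. With the cells of highest doublet score removed, the naïve ratio was 16.8. At 24 h it was 1.65-fold (0.256 to 8.46), in which no difference could be seen at this depth. B cell-like cells at 72 h were 3.09-fold (1.76 to 5.37) above naïve ones, and T cell-like cells were also higher at 72 h than naïve. *Fcgr2b* was read in 6.13% of naïve and 14.3% of 72 h B cell-like cells after thinning (12.9% and 30.2% without), against 0.565% and 5.88% of T cell-like cells.

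None of the other members had a ratio of B cell-like to T cell-like cells whose interval lay above 1 in any library. For *Fcer1g* this comparison could not decide, because T cell-like cells held the gene themselves, at 1862, 1278 and 1236 CPM. No ratio could be formed for *Fcrls* in the naïve library, with 2 and 0 UMIs, and at 24 h, with 0 in both. *Fcgr1*, *Fcgr3* and *Fcgr4* together gave 5 UMIs over 225 naïve cells. *Fcer1g* was at 38.4 CPM (22.7 to 60.6) in naïve B cell-like cells, 466 CPM (318 to 657) at 24 h and 435 CPM (323 to 574) at 72 h. A lymphoid sub-cluster of 126 cells led by *Il17a*, with *Cd4* among its leading genes, had 75.8, 525 and 303 CPM in the same libraries, and the part of free RNA in the B cell values was not tested. B cell-like cells also held receptors for other antibody classes. *Fcmr*, the receptor for IgM, was at 546, 553 and 539.7 CPM, *Fcer2a*, the low-affinity IgE receptor CD23, at 211, 218 and 148 CPM and *Fcrl1*, an Fc receptor-like gene of B cells, at 194, 247 and 218 CPM.

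Among lymphoid cells, the NK/ILC-like sub-cluster (46 cells over the 3 libraries, with *Ncr1* and *Klrb1c* among its leading genes) had 158 CPM (93.8 to 250.1) of *Fcgr3*, 4.53-fold (2.41 to 8.26) the other lymphoid cells, and 3121 CPM (2805 to 3464) of *Fcer1g*, 2.35-fold (2.08 to 2.64) theirs. The mix of cells differed between libraries, with 9, 15 and 22 NK/ILC-like cells, and the values by library are given although the first 2 of these groups are under 20 cells. Within the naïve, 24 h and 72 h libraries the *Fcgr3* ratio was 5.30 (0.558 to 25.6), 5.74 (1.57 to 22.9) and 2.86 (1.15 to 6.57), and the *Fcer1g* ratio 1.77 (1.34 to 2.29), 3.22 (2.47 to 4.18) and 3.55 (2.96 to 4.26). So the ratio lay above 1 beyond counting error in each library for *Fcer1g* and at 24 h and 72 h for *Fcgr3*. Over all libraries, *Fcer1g* was at 3209 CPM (2969 to 3463) in a sub-cluster of 77 cells led by *Gzma* and at 3554 CPM (3168 to 3973) in 27 cells led by *Capn3*, where *Fcgr3* was at 53.2 CPM (26.6 to 95.3) and 11.5 CPM (0.291 to 64.1). *Fcer1g* was lower in the *Il17a* cells, 294 CPM (243 to 354), and in 62 cells led by *Cd8b1*, 465 CPM (353 to 601). The *Fcer1g* level of the whole class therefore depends on which of these cells were caught.

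In neutrophil-like cells, the 72 h level of *Fcgr4* was 0.485 (0.304 to 0.745) and that of *Fcgr1* 0.210 (0.0415 to 0.658) of the 24 h level, the latter from 3 UMIs at 72 h and from a 24 h level that could not be told from that of T cell-like cells. *Fcgr3* (1.10, 0.882 to 1.37) and *Fcgr2b* (1.44, 0.904 to 2.26) had intervals that held 1. So 2 of 5 genes were at least 2-fold lower and 0 higher, beside 10.9% of 2492 genes lower and 8.39% higher. The median depth was 891 UMIs at 24 h and 1255 at 72 h. At 72 h, neutrophil-like cells were above cluster 8 in *Fcgr2b* (3.23-fold, 1.67 to 6.56), *Fcgr4* (2.80-fold, 1.38 to 5.96) and *Fcgr3* (1.44-fold, 1.11 to 1.89), and for *Fcer1g* the interval held 1 (1.03, 0.937 to 1.14).

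Genes that carry the signal of these receptors were taken as lists. Of 12 genes for signalling chains and kinases, 10 reached 50 CPM and 0 passed 2-fold in either direction at 24 h over naïve in monocyte/Mφ-like cells, beside the same 11.5% and 8.35%, with a median log2 ratio of -0.02 beside 0.23 over all genes. *Tyrobp*, which encodes the related chain DAP12, was at 2771, 3525 and 3309.7 CPM, and the kinase genes *Syk* and *Lyn* at 83.3, 66.5 and 97.3 CPM and 191, 184 and 190.04 CPM. At 72 h over 24 h 0 of 9 passed, and at 72 h over naïve 0 of 10. Of 5 inhibitory phosphatases and adaptors at 50 CPM, 1 was at least 2-fold higher and 1 lower at 24 h over naïve, beside 11.5% and 8.35% of all genes. *Dok2*, an adaptor that dampens kinase signals, was higher (58.9, 244 and 147 CPM), and *Inpp5d*, which encodes the phosphatase SHIP1 that FcγRIIb recruits, was lower (114, 54.7 and 90.1 CPM).

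Of 12 other Fc receptors listed, 10 were in the tables and 1 reached 50 CPM in monocyte/Mφ-like cells. This was *Fcgrt*, which encodes the neonatal Fc receptor that recycles IgG, at 239.7, 53.6 and 258 CPM, at least 2-fold lower at 24 h than naïve (8.35% of all genes) and at least 2-fold higher at 72 h than at 24 h (3.68%). Of 4 receptors at 50 CPM that pair with the FcRγ chain, 2 were at least 2-fold higher at 24 h than naïve, beside 11.5% of all genes: *Clec4e*, the gene of Mincle, at 42.7, 145 and 115 CPM and *Pira2*, an activating Ig-like receptor, at 16.3, 57.7 and 19.3 CPM. At 72 h over naïve, 2 of the 3 that reached 50 CPM were at least 2-fold higher, beside 2.35% of all genes. They were *Clec4e* again and *Clec4n*, the gene of Dectin-2, at 114, 212 and 331 CPM.

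Most interferon-stimulated genes of the list were also higher at 24 h than at the other times. In monocyte/Mφ-like cells, 8 of 10 were at least 2-fold higher at 24 h than in the naïve library, beside 11.5% of all genes, and 8 of 10 at least 2-fold lower at 72 h than at 24 h, beside 4.79%, with median log2 ratios of 1.65 and -3.18. *Isg15* was at 85.3, 696 and 64.7 CPM and *Irf7* at 54.8, 549 and 78.4 CPM. Of the antibody heavy chain genes, *Igha* was at 725, 134 and 1.63 CPM in monocyte/Mφ-like cells, which do not make antibody, and at 14227, 11275 and 87.1 CPM in B cell-like cells. *Ighm* was at 299, 71.3 and 136 CPM in monocyte/Mφ-like cells. Both heavy chain genes that reached 50 CPM there were at least 2-fold lower at 24 h and at 72 h than in the naïve library, beside 8.35% and 4.02% of all genes. The part of free RNA in this was not tested.

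The genes most like each member were taken over the 18 groups of class and library with 20 cells, as the 3 highest Pearson correlations of log2(CPM + 10) among 3244 genes. The groups share libraries and free RNA, and the correlations are descriptions. *Fcer1g* was most like *Tyrobp* (0.95), *Vsir* (0.94) and *Tnfrsf1a* (0.92), *Fcgr1* like *Ctsb* (0.93), *Clec4a3* (0.92) and *Grn* (0.92) and *Fcgr2b* like *Fn1* (0.88), *Lyz2* (0.88) and *Adam15* (0.86). *Fcgr3* was most like *Clec4a2* (0.97), *Cd14* (0.95) and *Lst1* (0.95), *Fcgr4* like *Thbs1* (0.93), *Hmox1* (0.92) and *Prtn3* (0.86) and *Fcrls* like *Slamf9* (0.81), *Igf1* (0.81) and *Mrc1* (0.81).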

How the data were processed

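Single-cell 3' libraries (10x v2) of sorted CD45+ cells were sequenced by the authors, 1 per time point, and the deposited values are UMI counts per gene and cell made with Cell Ranger 3.0.2 (per the submitters' processing notes) on GRCm38. Seurat is also named there. Per the series' design text, the authors left cells with few genes or a high mitochondrial share out of their analysis, and no deposited cell had fewer than 261 genes or a mitochondrial share above 9.91%. The 3 count tables were used as deposited.

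Cells were clustered with Seurat 5.3.0 in R 4.3.3 (30 principal components for all cells, 20 within monocytes/Mφs and 10 within lymphoid cells, resolution 0.8), leaving the Fc receptor and pathway genes out of the variable genes. A cluster was named from marker lists when at least 3 of a list's markers were at 2-fold. A cluster of low median UMIs with no marker of its list among its leading genes stayed unnamed. After the clusters were seen the rule was revised: ties go to the list with more markers, and the mean fold must be above even. A name is dropped when another list holds at least as many of the leading genes as its own list. Lastly, a cluster stays unnamed when under 50% of its cells in a library hold a UMI of any marker. The last revision unnamed the dividing cluster, and was prompted by the values of the members in it. The members and lists were chosen with earlier results of these data known. Doublets were scored with Scrublet (scanpy 1.11.5) and kept, with their removal as an alternative.

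UMIs were summed per group and library and given as CPM. Intervals are exact Poisson for levels, exact conditional for ratios and exact Clopper-Pearson for shares, at 95%. They cover counting error only. A gene was compared with the background where it had at least 50 CPM in either group, and called at 2-fold. No p-value was computed, since each group is 1 library. The genes named were the 6 members, list genes past 2-fold or needed for a list's count, and for each member the 3 genes most alike among those with at least 100 CPM in a group. *Tyrobp*, *Syk*, *Lyn*, *Isg15* and *Irf7* were chosen as examples of their lists after their values were seen. Ratios of NK/ILC-like cells by library, of T cell-like cells without them, of Ly6c+ cells over time and of Cx3cr1+ over Selenop+ cells at 72 h were added after the data were seen. *Cd79a* and *Lyz2* in the dividing cluster were chosen then too. Gene positions are from GENCODE M21 and promoter sequences from RefSeq. Alternatives covered the cell filter, clustering, doublets, TMM (edgeR 4.0.16) and median-of-ratios scaling, weighting by cell, thinning and pseudocount. Interval scripts were tested on simulated data. Protein sequences were not used here. Python 3.11.15, scipy 1.17.1 and matplotlib 3.10.9 were used.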

Additional observations from a re-analysis of the deposited data

How the results depend on the processing

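The count of genes at least 2-fold higher at 72 h than at 24 h in monocyte/Mφ-like cells was 2, and it was 1 with a stricter cell filter (500 genes or more, and no more than 5% of UMIs mitochondrial), with 15 and 10 principal components, with TMM scaling and with median-of-ratios scaling. In each of these *Fcgr2b* lay just under 2-fold, and its ratio ranged from 1.918 to 2.044 over all alternatives. Of the other main results under the alternatives, 154 stayed within their limits and 0 were reversed. A reversal could be called only for ratios whose interval left out 1, and not for counts of genes or activating over inhibitory ratios. Of the single values, 316 stayed within their limits and 62 moved past them, among them the *Fcrls* ratio of 72 h over naïve, which was 0.743 when every cell had the same weight, and the genes most like *Fcgr1*, of which 1 of 3 remained with a pseudocount of 1 CPM. The naïve *Fcgr2b* level of B cell-like over T cell-like cells was 8.35-fold, 16.8-fold with the highest doublet scores removed and 9.64-fold with the dividing cluster counted as B cell-like. Leaving out the monocyte/Mφ sub-cluster with B cell genes or the one of low UMI counts, and counting the dividing cluster as B cell-like, were alternatives chosen after seeing the data. No paired analysis was possible because each time point is 1 library, and no replicate could be left out for the same reason. Depth limits the groups with few UMIs of a gene, such as *Fcgr2b* in 24 h B cell-like cells and in naïve T cell-like cells.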
